A study of Homo sapiens with 3 samples.

Results

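The MYC, MAX and MXD network comprised 10 of the 58735 genes in the table, chosen by gene name: MYC, MYCN, MYCL, MAX, MXD1, MXI1, MXD3, MXD4, MNT and MLX. All 10 were found, each as 1 protein-coding row, and 9 of them had a mean of at least 1 FPKM (fragments per kilobase of gene, scaled to library size), the level required for testing; MYCN did not. The cells were HGC-27, a human line from gastric cancer that is established in culture, and RNA was sequenced in 3 libraries: shUSP16-1 and shUSP16-2, labelled as carrying a short hairpin RNA against the deubiquitinase gene USP16, and shControl, labelled as scramble and also as wild type. What separates shUSP16-1 from shUSP16-2, whether hairpin, culture or repeat, is not in the labels; p-values therefore reflect the spread between libraries alone, and that spread may be technical. All 3 libraries share the same protocol text, growth in 1640 medium with serum followed by a mix of dexamethasone, isobutylmethylxanthine and insulin; whether these cells received that mix is unclear.

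MYC, MYCN and MYCL are transcription factors that bind DNA only as dimers with MAX, at the E-box CACGTG and close variants, and then promote growth and ribosome production. MXD1, MXI1 (also known as MXD2), MXD3, MXD4 and MNT bind the same partner and the same sites but recruit SIN3 and histone deacetylases, so they repress. MLX is a MAX-like protein that pairs with MondoA (MLXIP) and ChREBP (MLXIPL), which respond to glucose, and with some MXD proteins. MYC is amplified or overexpressed in many gastric cancers.

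E-box letters in the promoters of the network show which of its genes carry the site that its own proteins bind. RefSeq promoters (GRCh38.p14) matched 9 of the 10 genes, all but MYC. CACGTG, which reads the same on both strands, was searched in the 250 bases before each start site. These 9 genes had 12 promoters, of which 3 held it, those of MXD4, MNT and MLX, against 6.34% of all 35116 promoters of the table over the same length. Among the genes tested for expression, a closer background, 1119 of 13334 promoters held it, or 11.5% when counted by gene. The stretches below lie outside annotated exons of GENCODE 29, run 5′ to 3′ on the gene's strand and carry the E-box in capitals; MXD1 is shown because it was the tested member furthest below shControl, and its promoter lacks these letters in this window.
MXD4, chr4:2262295-2262359, minus strand: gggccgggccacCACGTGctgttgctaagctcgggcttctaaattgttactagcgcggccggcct
MNT, chr17:2401119-2401310, minus strand: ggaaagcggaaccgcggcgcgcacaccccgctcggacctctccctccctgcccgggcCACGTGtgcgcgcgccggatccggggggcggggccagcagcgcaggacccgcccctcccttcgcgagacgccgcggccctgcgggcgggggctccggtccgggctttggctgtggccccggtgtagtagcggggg
MLX, chr17:42566850-42567067, plus strand: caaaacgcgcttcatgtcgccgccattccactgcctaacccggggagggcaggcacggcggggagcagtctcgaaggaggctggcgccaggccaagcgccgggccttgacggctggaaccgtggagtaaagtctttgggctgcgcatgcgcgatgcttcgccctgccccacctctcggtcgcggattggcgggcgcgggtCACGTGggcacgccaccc
MXD1, chr2:69914859-69915040, plus strand: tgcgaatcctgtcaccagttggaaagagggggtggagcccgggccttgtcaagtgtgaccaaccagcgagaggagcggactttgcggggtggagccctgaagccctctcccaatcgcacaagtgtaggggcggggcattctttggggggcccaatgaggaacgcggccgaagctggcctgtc

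The E-box began 238 bases before the RefSeq start of MXD4, 193 bases before that of MNT and 50 bases before that of MLX. These are matches of letters and do not show that a protein was bound there.

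Whole reads recovered from the FPKM values summed to between 29530581 and 31187845 per library. USP16, the targeted gene, had 4.29 FPKM in shUSP16-1 and 5.98 FPKM in shUSP16-2, against 6.28 FPKM in shControl. As deposited, the library labelled shUSP16-2 thus barely differed from shControl in USP16 (ratio 0.952, exact binomial 95% interval 0.875 to 1.04). Scaling by sums of reads lowers every ratio to shControl, that of USP16 in shUSP16-2 included. Whether the interval of that ratio includes 1 therefore depends on the scaling. The log2 difference of USP16 over both libraries then went from -0.26 to -0.35 (limma adjusted p = 0.564 and 0.466). Both are therefore called libraries labelled shUSP16 where a direction is drawn, and each value is given per library. The labelled tissue is stomach, but 0 of 8 stomach lineage markers and 0 of 6 epithelial markers reached a mean of 1 FPKM, and CDH1 had 2 reads in shUSP16-1, 0 in shUSP16-2 and 0 in shControl. Of 6 mesenchymal markers, 3 reached that level (VIM, COL1A1 and ZEB1). Leukocyte markers reached it in 0 of 4, endothelial markers in 0 of 3 and adipocyte markers in 1 of 5 (CEBPA).

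MYC made up most of the network's mRNA in every library. By FPKM it took 70.3% of the summed level of the 10 genes in shUSP16-1, 74.1% in shUSP16-2 and 65.5% in shControl. It ranked 157th of 19951 protein-coding genes in shUSP16-1, 160th in shUSP16-2 and 181st in shControl. FPKM is per deposited gene length, so levels of different genes can be set side by side, with the limit that the deposited length is a fixed value per gene and not the length of the transcript in use.

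**Figure D1:**
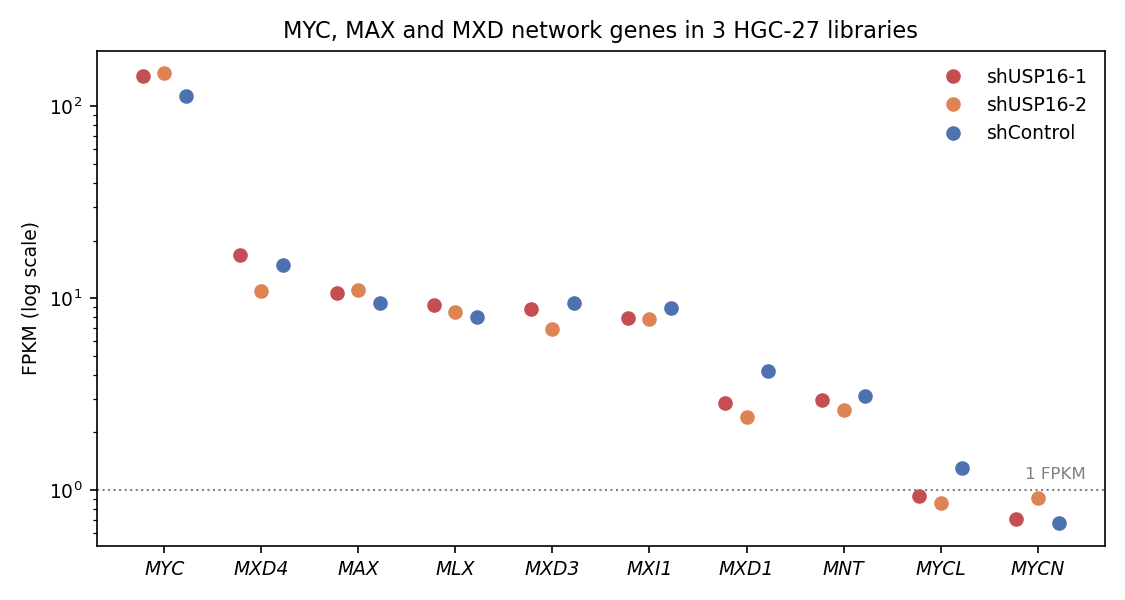
FPKM (log scale) of the 10 genes in each library, with genes ordered by their mean and 1 point per library. MYC stood above 113 FPKM in every library, 5 genes lay between 6.93 and 16.7 FPKM, and MYCL and MYCN lay near the dotted line at 1 FPKM.

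Averaged over the libraries labelled shUSP16 (SD, n = 2), levels ran from MYC (146 ± 3.83 FPKM) to MXD4 (13.8 ± 4.07), MAX (10.8 ± 0.280), MLX (8.85 ± 0.508), MXD3 (7.88 ± 1.34), MXI1 (7.85 ± 0.118), MNT (2.79 ± 0.219), MXD1 (2.62 ± 0.317), MYCL (0.893 ± 0.0553) and MYCN (0.806 ± 0.140). Neighbours in this order from MXD4 to MAX, from MLX to MXD3, from MXD3 to MXI1, from MNT to MXD1 and from MYCL to MYCN differed by less than the larger of their SDs. In shControl MXD1 stood above MNT, at 4.15 against 3.09 FPKM, the reverse of the order in both libraries labelled shUSP16.

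MYC (ENSG00000136997, chromosome 8, 127735434 to 127741434, plus strand, GRCh38), the growth-promoting factor of the network, had 143 FPKM in shUSP16-1 (12866 reads) and 149 FPKM in shUSP16-2 (13850 reads), against 114 FPKM in shControl (11110 reads). Both libraries labelled shUSP16 stood above shControl and close to each other, with a ratio of shUSP16-2 to shUSP16-1 of 1.04. In bulk RNA, more cells with MYC mRNA and more MYC mRNA per cell cannot be told apart. Relative to shControl, shUSP16-1 was at 1.26 (exact binomial 95% interval 1.23 to 1.29) and shUSP16-2 at 1.31 (1.28 to 1.34). These intervals, and those of the other members, hold counting error alone.

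MYCN (ENSG00000134323, chromosome 2, 15940564 to 15947007, plus strand), the paralogue known from neuroblastoma, had 0.707 FPKM in shUSP16-1 (55 reads) and 0.905 FPKM in shUSP16-2 (73 reads), against 0.673 FPKM in shControl (57 reads). The intervals of its ratios, 0.712 to 1.55 in shUSP16-1 and 0.938 to 1.94 in shUSP16-2, both include 1, so no difference was detectable at this depth.

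MYCL (ENSG00000116990, chromosome 1, 39895426 to 39902256, minus strand), the paralogue first found in small cell lung cancer, had 0.932 FPKM in shUSP16-1 (141 reads) and 0.854 FPKM in shUSP16-2 (134 reads), against 1.30 FPKM in shControl (215 reads). It was lower in both, with ratios of 0.714 (0.574 to 0.888) and 0.655 (0.524 to 0.816). Its mean of 1.03 FPKM lay just above the level for testing and passed it only through shControl. MYC mRNA was 154 times MYCL in shUSP16-1 and 174 times in shUSP16-2, against 87.2 times in shControl.

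MAX (ENSG00000125952, chromosome 14, 65006174 to 65102695, minus strand), the shared partner, had 10.6 FPKM in shUSP16-1 (1409 reads) and 11.0 FPKM in shUSP16-2 (1516 reads), against 9.40 FPKM in shControl (1355 reads). Both stood above shControl, at ratios of 1.13 (1.05 to 1.22) and 1.17 (1.09 to 1.27). MYC exceeded MAX by 13.5 times in shUSP16-1 and 13.5 times in shUSP16-2, against 12.1 times in shControl. The span of MAX overlaps FNTB on the opposite strand, which had 190 to 252 reads, and no source used here states that counting used strand.

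MXD1 (ENSG00000059728, chromosome 2, 69897688 to 69942945, plus strand), a repressor known to accumulate as cells differentiate, had 2.85 FPKM in shUSP16-1 (540 reads) and 2.40 FPKM in shUSP16-2 (472 reads), against 4.15 FPKM in shControl (859 reads). Both libraries labelled shUSP16 were below shControl, at ratios of 0.685 (0.614 to 0.764) and 0.577 (0.515 to 0.646), the lowest ratios of the 10 genes in either library. The difference between these libraries was smaller than either difference from shControl (ratio of shUSP16-2 to shUSP16-1 0.843, interval 0.743 to 0.955). The span of MXD1 overlaps SNRNP27 on the same strand, a splicing factor gene with 774 reads in shUSP16-1 and 826 in shUSP16-2, against 640 in shControl.

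MXI1 (ENSG00000119950, chromosome 10, 110207605 to 110287365, plus strand), another repressor of the family, had 7.93 FPKM in shUSP16-1 (1092 reads) and 7.77 FPKM in shUSP16-2 (1109 reads), against 8.89 FPKM in shControl (1333 reads). The libraries labelled shUSP16 lay close together, both below shControl, at ratios of 0.892 (0.823 to 0.968) and 0.874 (0.806 to 0.947).

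MXD3 (ENSG00000213347, chromosome 5, 177301461 to 177312757, minus strand), the family member known for expression in S phase of proliferating cells, had 8.83 FPKM in shUSP16-1 (1360 reads) and 6.93 FPKM in shUSP16-2 (1107 reads), against 9.40 FPKM in shControl (1578 reads). As deposited, only shUSP16-2 stood clear of shControl by counting error, with a ratio of 0.737 (0.682 to 0.796) against 0.939 (0.873 to 1.01) for shUSP16-1. Scaled by sums of reads, shUSP16-1 was also clear of it, at 0.879 (0.817 to 0.946). The span of MXD3 overlaps PRELID1 on the opposite strand (2765 reads in shUSP16-1, 2697 in shUSP16-2 and 2084 in shControl) and RAB24 on the same strand (262, 278 and 318 reads in the same order).

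MXD4 (ENSG00000123933, chromosome 4, 2247432 to 2262294, minus strand), the most abundant repressor here, had 16.7 FPKM in shUSP16-1 (3525 reads) and 11.0 FPKM in shUSP16-2 (2398 reads), against 15.0 FPKM in shControl (3442 reads). The libraries labelled shUSP16 lay on opposite sides of shControl, at ratios of 1.12 (1.06 to 1.17) and 0.732 (0.694 to 0.771). Its ratio of shUSP16-2 to shUSP16-1, 0.656 (0.622 to 0.691), was the lowest of the 10 genes.

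MNT (ENSG00000070444, chromosome 17, 2384060 to 2401118, minus strand), a repressor found in most cell types that competes with MYC for MAX, had 2.94 FPKM in shUSP16-1 (767 reads) and 2.63 FPKM in shUSP16-2 (712 reads), against 3.09 FPKM in shControl (877 reads). Both values were below shControl, and as deposited the interval of the ratio included 1 in shUSP16-1 (0.864 to 1.05) but not in shUSP16-2 (0.771 to 0.942). Scaled by sums of reads, the interval in shUSP16-1 also lay below 1 (0.809 to 0.984).

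MLX (ENSG00000108788, chromosome 17, 42567068 to 42573239, plus strand), which links the network to glucose sensing, had 9.21 FPKM in shUSP16-1 (1172 reads) and 8.49 FPKM in shUSP16-2 (1121 reads), against 7.97 FPKM in shControl (1105 reads). Its ratios were 1.16 (1.06 to 1.26) and 1.07 (0.980 to 1.16). The end of its span overlaps PSMC3IP on the opposite strand, with 422 to 486 reads.

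**Figure D2:**
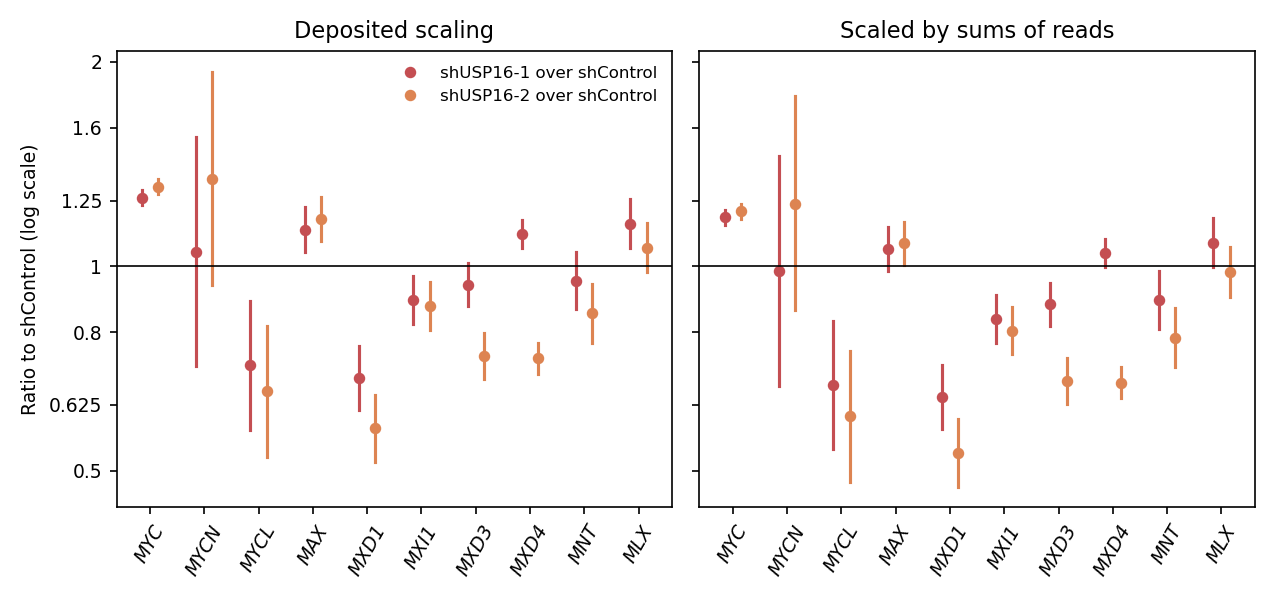
Ratio of each library labelled shUSP16 to shControl for the 10 genes (log scale), with the deposited scaling on the left and scaling by sums of reads on the right; lines are exact binomial 95% intervals of counting error. The intervals of MYC lay above 1 and those of MXD1, MYCL and MXI1 below 1 in both libraries under both scalings. The ratios of MAX also lay above 1 and those of MXD3 and MNT below 1, each with at least 1 interval that included 1. The ratios of MXD4 lay on both sides of 1.

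The series names depletion of USP16 as its question, although USP16 mRNA was barely lower in shUSP16-2 under the deposited scaling. Set against shControl, the libraries labelled shUSP16 had MYC mRNA higher by a log2 difference of 0.36 (SE 0.11) and MXD1 mRNA lower, with a log2 difference of -0.51 (SE 0.16), both on the log2(FPKM + 1) scale. Neither passed limma's moderated test with Benjamini-Hochberg adjustment over 13852 genes (adjusted p = 0.292 for MYC and 0.298 for MXD1). MAX (0.19) and MLX (0.13) also had positive log2 differences, and MYCL (-0.28), MXD3 (-0.24), MXI1 (-0.16), MXD4 (-0.13) and MNT (-0.11) negative ones, with limma adjusted p from 0.501 for MAX to 0.825 for MXD4. limma called 0 of the 9 tested members, as it called 0% of all 13852 genes; at an unadjusted p under 0.05 were MYC and MXD1, 2 of 9, against 14.5% of all genes. The fit had 1 residual degree of freedom per gene, so the count of 0 does not show that the genes were unchanged.

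Among all genes tested, 5.00% had a log2 difference as low as that of MXD1 or lower, and 8.81% one as high as that of MYC or higher. With no limit of size, 3 of the 9 tested members were higher in both libraries labelled shUSP16 (MYC, MAX and MLX), against 45.0% of all genes, and 5 were lower in both (MYCL, MXD1, MXI1, MXD3 and MNT), against 32.4% of all genes. MYCL is among the 5 but passed the level for testing only through shControl, where it was high. All 9 code for protein, and among the 11069 protein-coding genes tested 50.2% were higher and 28.2% lower in both. All differences share the 1 control library. None of the 9 was 1.5-fold from shControl in both, where 2.05% of all genes were at least that much higher and 4.26% at least that much lower.

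Scaling by sums of reads in place of the deposited scaling lowered the median log2 difference of all genes to -0.048, against 0.042 as deposited. MYC was then at ratios of 1.18 and 1.20 and MXD1 at 0.641 and 0.531, so that MXD1 was past 1.5-fold in both. MLX then lay on both sides of shControl, at 1.08 and 0.980, and MAX stayed above it, at 1.06 and 1.08. By these ratios 2 of the 9 were higher in both and 5 lower in both, against 31.3% and 45.4% of all genes. MYCL was again among the 5. limma voom on recovered reads with those sums, an alternative chosen after seeing the data, called MXD1 lower (log2 difference -0.78, adjusted p = 0.0197) as the only called member, against 4.02% of all genes. With the totals implied by the FPKM, voom had an adjusted p of 0.0599 for MXD1 and 0.123 for MYC and called 0 of the 9, against 2.51% of all genes. limma on protein-coding genes alone called 0 of the 9 (adjusted p = 0.121 for MXD1 and 0.159 for MYC), against 0.434% of those genes. Across the 8 alternatives that gave MXD1 a test, its adjusted p ran from 0.0197 to 0.395. For MYC, 9 alternatives gave 0.123 to 0.389.

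The repressors relative to MYC were lower in both libraries labelled shUSP16. MXD1, MXI1, MXD3, MXD4 and MNT summed to 39.3 FPKM in shUSP16-1 and 30.7 FPKM in shUSP16-2, against 40.5 FPKM in shControl. Divided by the FPKM of MYC, the sum came to 0.274 in shUSP16-1 and 0.206 in shUSP16-2, a mean of 0.240 ± 0.0478 (SD, n = 2), against 0.356 in shControl. Both ratios lay below shControl. As deposited, nearly all of the gap in shUSP16-1 came with the higher MYC value, since the sum was 0.969 times that of shControl. In shUSP16-2 the sum was 0.757 times. The quotient does not depend on the scaling of libraries, but this split does. By sums of reads MYC in shUSP16-1 was 1.18 times shControl, against 1.26 as deposited, and the repressor sum falls by the same factor. The quotient is given as values, with no test.

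**Figure D3:**
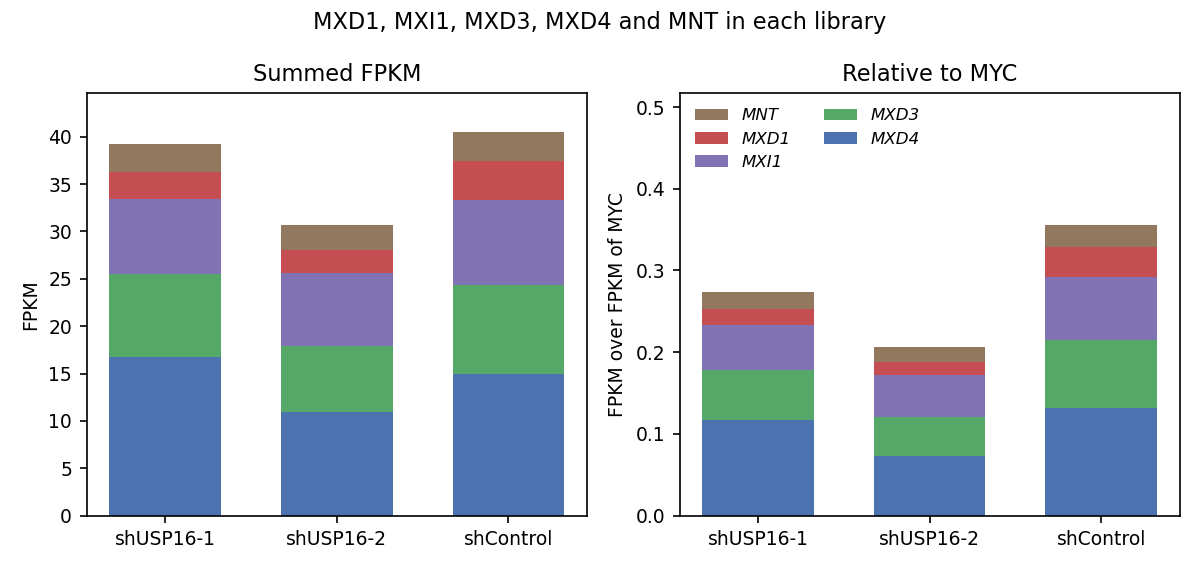
Stacked FPKM of MXD4, MXD3, MXI1, MXD1 and MNT in each library (left) and the same divided by the FPKM of MYC (right), as bars from 0. The stacks on the right reach 0.274 and 0.206 in shUSP16-1 and shUSP16-2 and 0.356 in shControl, and most of the gap between shUSP16-1 and shUSP16-2 on the left is MXD4.

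None of the 3 remaining partners of MAX and MLX passed the test. MGA, which pairs with MAX in a Polycomb-related complex, had 3.89 and 4.15 FPKM in shUSP16-1 and shUSP16-2, against 3.36 FPKM in shControl, with ratios of 1.16 (1.09 to 1.23) and 1.23 (1.16 to 1.31) (limma adjusted p = 0.517). MLXIP, encoding MondoA, had 5.40 and 4.72 FPKM, against 4.59 FPKM in shControl (limma adjusted p = 0.735). MLXIPL, encoding ChREBP, had 1.74 and 1.32 FPKM, against 1.84 FPKM in shControl; the interval of its ratio lay below 1 in shUSP16-2 alone (0.596 to 0.864, limma adjusted p = 0.732).

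Long RNAs of the MYC and MYCN loci were matched for 7 of 9 names. PVT1, a long noncoding RNA gene downstream of MYC on chromosome 8 and often co-amplified with it, had 20.7 FPKM in shUSP16-1 and 21.1 FPKM in shUSP16-2, against 16.9 FPKM in shControl. Its log2 difference of 0.29 did not pass (limma adjusted p = 0.353), and it lay on the same side as that of MYC in both libraries. CASC11, upstream of MYC, had 13 and 23 reads in shUSP16-1 and shUSP16-2, against 19 in shControl. PCAT1 had 112 and 139 reads, against 162 in shControl. CCAT2 had 7 and 0 reads, against 6 in shControl, and CASC8 had 0 and 0 reads, against 5 in shControl. MYCNOS, antisense to MYCN, had 9 and 2 reads, against 0 in shControl, and MYCNUT had 0 reads in all 3 libraries.

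Genes that work with the network were described in lists chosen with earlier results of these data known. Of 23 MYC coactivators, 18 were higher in both libraries labelled shUSP16 and 0 were lower in both, against 45.0% and 32.4% of all genes. The median log2 difference of the 23 was 0.20, against 0.042 for all genes tested. SMARCB1, a SWI/SNF subunit that binds MYC, had 6.18 and 6.45 FPKM in shUSP16-1 and shUSP16-2, against 4.17 FPKM in shControl. HCFC1, a host cell factor that MYC contacts, had 23.4 and 23.3 FPKM, against 17.0 FPKM in shControl. TRRAP, the scaffold of histone acetyltransferase complexes, had 7.41 and 7.40 FPKM, against 5.67 FPKM in shControl. Its span overlaps SMURF1 on the opposite strand, with 1277 to 1352 reads. limma called 0 of the 23 and voom with the totals implied by the FPKM called 1, SMARCB1 (adjusted p = 0.0254), where it called 1.47% of all genes higher. With sums of reads 14 of the 23 were higher in both and 3 lower, against 31.3% and 45.4% of all genes.

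SIN3 and deacetylase corepressors, through which MXD proteins and MNT act, numbered 16, of which 13 were higher and 1 lower in both, with a median of 0.14. The matching shares of all genes were 45.0% and 32.4%. BRMS1, a SIN3 complex subunit, had 25.0 and 24.4 FPKM in shUSP16-1 and shUSP16-2, against 17.0 FPKM in shControl. SIN3A, the scaffold, had 8.32 and 8.38 FPKM, against 6.75 FPKM in shControl. RBBP4, a histone-binding subunit, had 15.9 and 18.6 FPKM, against 13.8 FPKM in shControl. SUDS3, another SIN3 subunit, was the lower one, at 6.87 and 6.70 FPKM, against 8.10 FPKM in shControl. limma and voom with either kind of total called 0 of the 16, with 2 at an unadjusted limma p under 0.05, both higher, against 14.5% of all genes in either direction and 8.71% higher. With sums of reads 8 were higher in both and 4 lower, against 31.3% and 45.4% of all genes.

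Regulators of MYC protein stability were mixed: 15 of 24 members were higher in both and 4 lower in both, with a median of 0.097. Over all genes these shares were 45.0% and 32.4%, and over protein-coding genes 50.2% and 28.2%. CIP2A, an inhibitor of the phosphatase PP2A that protects MYC, had 7.88 and 11.0 FPKM in shUSP16-1 and shUSP16-2, against 5.77 FPKM in shControl. SET, another PP2A inhibitor with processed pseudogenes that can share its reads, had 120 and 136 FPKM, against 95.8 FPKM in shControl. SKP2, a ubiquitin ligase subunit that acts on MYC, had 33.2 and 38.1 FPKM, against 26.6 FPKM in shControl, and USP22, a deubiquitinase of the SAGA complex, 39.2 and 38.2 FPKM, against 31.3 FPKM in shControl. The span of USP22 overlaps CCDC144NL-AS1 on the opposite strand, with 1427 to 2034 reads. FBXW7, the ligase subunit best known for MYC degradation, had 1.52 and 1.56 FPKM, against 1.69 FPKM in shControl. USP13 had 5.80 and 6.15 FPKM, against 6.78 FPKM in shControl; FBXL14 and TRIM32, the other 2 lower in both, had log2 differences of -0.10 each. limma and voom with either kind of total called 0 of the 24, with 4 at an unadjusted limma p under 0.05, all higher, against 14.5% of all genes in either direction and 8.71% higher. With sums of reads 10 were higher in both and 8 lower, against 31.3% and 45.4% of all genes.

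Of 56 tested genes that MYC is known to activate, 50 were higher and 3 lower in both libraries labelled shUSP16. Among all genes tested, 45.0% were higher and 32.4% lower in both. The median log2 difference of the 56 was 0.28 in shUSP16-1 and reached 0.45 in shUSP16-2. TFRC, the transferrin receptor, had 30.4 and 34.3 FPKM in shUSP16-1 and shUSP16-2, against 19.6 FPKM in shControl. CDK4, a G1 kinase, had 17.6 and 18.8 FPKM, against 11.6 FPKM in shControl, and SLC19A1, a folate carrier, had 4.28 and 4.40 FPKM, against 2.61 FPKM in shControl. RIOX2, a ribosomal oxygenase induced by MYC, had 4.31 and 4.35 FPKM, against 2.45 FPKM in shControl. CDK4, SLC19A1 and RIOX2 overlap TSPAN31, COL18A1 and CRYBG3 on the opposite strand, all with reads. CDK4 also overlaps a gene deposited under the name 9-Mar on the opposite strand, with 461 to 763 reads. KDM4B, a histone demethylase gene, was lower, at 4.89 and 4.21 FPKM, against 5.83 FPKM in shControl. EIF4A1, a translation initiation helicase, had 4.68 and 5.14 FPKM, against 5.69 FPKM in shControl, but shares its span with the read-through gene SENP3-EIF4A1, so its own level is uncertain. SLC2A1, a glucose transporter, had 11.2 and 11.3 FPKM, against 11.9 FPKM in shControl.

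limma called 0 of the 56, with 30 at an unadjusted p under 0.05, all higher, against 14.5% of all genes in either direction and 8.71% higher. voom called 15 higher and 0 lower with the totals implied by the FPKM and 15 higher with sums of reads, where it called 1.47% and 1.00% of all genes higher. Of these, TFRC (voom adjusted p = 0.0088), SLC19A1 (0.0241), RIOX2 (0.0259) and CDK4 (0.0286) were called with the implied totals. With sums of reads 47 were higher in both and 5 lower, against 31.3% and 45.4% of all genes. The split of the list thus moved little with the scaling. Promoters were matched for 46 of the 57 listed genes, and 34.8% of these 46 held CACGTG in the 250 bases before a start, against 11.5% of the 9147 tested genes with a promoter in the table and 7.73% of all 27305 genes of the table. The 15 tested genes with the E-box had a median log2 difference of 0.33 and the 30 without it 0.40.

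Of 30 tested genes that MYC is known to repress, 16 were lower and 9 higher in both, with a median of -0.10. Among all genes tested, 32.4% were lower and 45.0% higher in both. HES1, a NOTCH target, had 11.7 and 13.0 FPKM in shUSP16-1 and shUSP16-2, against 25.5 FPKM in shControl. DUSP1, a phosphatase that is also an immediate early gene, had 14.6 and 14.9 FPKM, against 26.8 FPKM in shControl. NDRG1, which is also induced by hypoxia, had 0.525 and 0.673 FPKM, against 2.29 FPKM in shControl. NDRG1 reached the mean of 1 FPKM required for testing only through shControl, the library in which it was high. GAS2, at 0.944 FPKM in shUSP16-1 and 0.910 FPKM in shUSP16-2, also reached it only through its higher level in shControl (mean of all libraries 1.03 FPKM). NDRG1 and GAS2 are among the 16 lower in both, so the filter fixed part of that count. On the higher side, CCND1, encoding cyclin D1, had 51.0 and 47.2 FPKM, against 33.8 FPKM in shControl. Its span overlaps LTO1 on the opposite strand, with 749 to 859 reads. COL1A1, a chain of type I collagen, had 71.1 and 78.4 FPKM, against 52.2 FPKM in shControl. COL1A2, its other chain, had 6.97 and 11.3 FPKM, against 5.23 FPKM in shControl. FTH1, the ferritin heavy chain, had 125 and 131 FPKM, against 107 FPKM in shControl; it has processed pseudogenes that can share its reads.

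limma called 0 of the 30 over all genes, with 7 lower and 2 higher at an unadjusted p under 0.05, where 5.78% of all genes were lower and 8.71% higher. With sums of reads 17 of the 30 were lower in both and 6 higher, against 45.4% and 31.3% of all genes. NDRG1 and GAS2 are again among the 17. limma on protein-coding genes alone called 3, all lower: HES1 (adjusted p = 0.0137), DUSP1 (adjusted p = 0.0248) and NDRG1 (adjusted p = 0.0305), the last of which entered the test only through shControl. That fit called 0.280% of all protein-coding genes lower. voom called 4 lower and 3 higher with the implied totals, where it called 1.04% of all genes lower and 1.47% higher. With sums of reads it called 6 lower and 2 higher, against 3.02% and 1.00% of all genes. NDRG1 was among the lower calls with both kinds of total (voom adjusted p = 1.72e-04 and 4.83e-06), and it entered these tests, too, only through shControl.

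Targets of MondoA and ChREBP, the MLX partners, showed no common direction, with 4 of 11 tested members higher in both and 2 lower in both. The shares of all genes were 45.0% and 32.4%. TXNIP, the thioredoxin-binding protein gene that is the best known MondoA target, had 12.7 FPKM in shUSP16-1 and 21.0 FPKM in shUSP16-2, against 29.9 FPKM in shControl. The 3 libraries were spread apart, with shUSP16-2 between the others. limma did not call TXNIP (adjusted p = 0.319), and voom called it lower with the implied totals (adjusted p = 0.0211). TXNIP is also on the list of genes that MYC is known to repress. Its value is already counted there, as lower in both and as a lower call by voom, and is not a separate observation here. ACLY, which supplies acetyl-CoA for fatty acid synthesis, had 73.2 and 76.1 FPKM in shUSP16-1 and shUSP16-2, against 56.6 FPKM in shControl. ACACA, the next enzyme of that route, had 19.7 and 19.5 FPKM, against 15.1 FPKM in shControl. FASN, of the same route, had 108 and 83.4 FPKM, against 74.6 FPKM in shControl, and TKT, of the pentose phosphate pathway, 48.0 and 41.3 FPKM, against 34.9 FPKM in shControl. PFKFB3, a regulator of glycolysis, had 6.86 and 6.92 FPKM, against 7.72 FPKM in shControl.

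**Figure D4:**
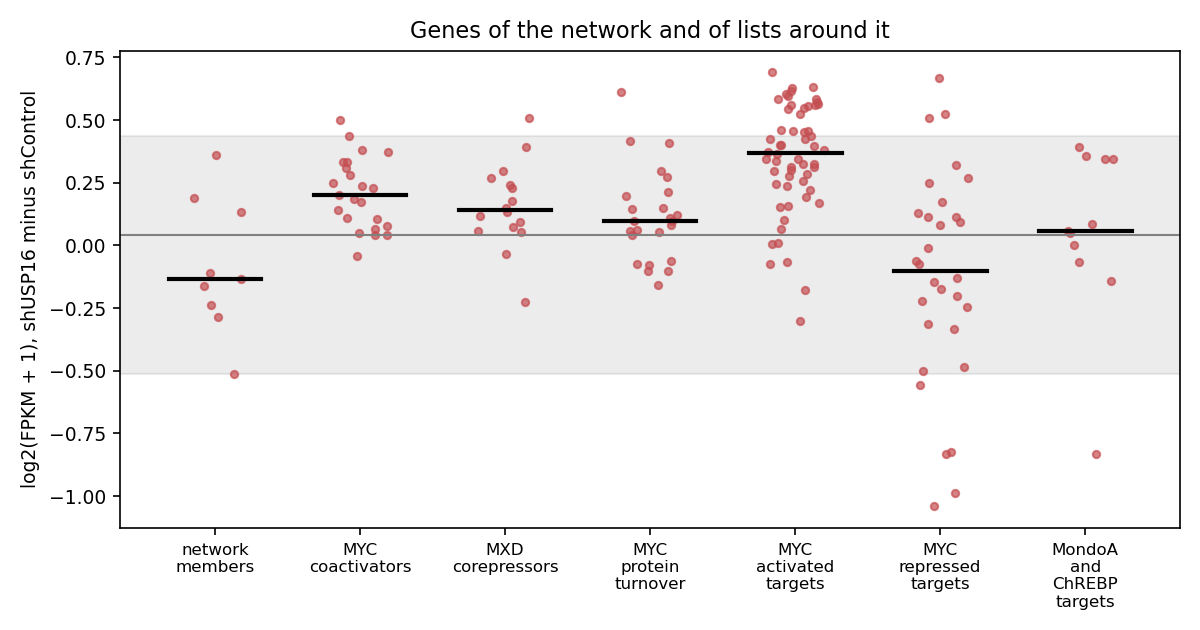
Difference of shUSP16 minus shControl on the log2(FPKM + 1) scale for each tested gene of the network and of 6 lists (points, with list medians as black bars); the grey line is the median of all 13852 genes tested (0.042) and the grey band their 5th to 95th percentile (-0.51 to 0.44). The median of the genes MYC is known to activate is 0.37, that of the genes it is known to repress -0.10 and that of the network members -0.13.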

How the data were processed

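RNA-seq expression was measured in 2 libraries labelled shUSP16 and 1 shControl, grouped by title. The authors deposited 1 table of FPKM per gene, per the file headers. No label or header used here names the aligner, counter, strand setting or RNA selection. Per the submitters' processing notes the builds were GRCm38 and mm10, of mouse; yet every one of the 58735 IDs and its coordinates equals human GENCODE 29 (GRCh38). FPKM times length was a whole multiple of 1 step per library for 100% of values above 0 (tolerance 0.01 reads). Totals implied by FPKM were 1.01, 0.994 and 1.08 times the recovered reads in shUSP16-1, shUSP16-2 and shControl, so a further scaling had been applied.

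limma 3.58.1 in R 4.3.3 compared log2(FPKM + 1) for 13852 genes averaging 1 FPKM or more, with a variance trend and Benjamini-Hochberg adjustment at 0.05. It had 1 residual degree of freedom, from the libraries labelled shUSP16 (the lone control was assumed to vary likewise), and a prior of 4.05. limma and voom were tested on simulated data with planted changes larger than those of the members. The only requirement was the right direction, so the simulation does not show how the tests perform for changes as small as those here. Members and lists were chosen with earlier results of these data known. Named were all members, USP16, other MAX and MLX partners, locus RNAs, and from each list up to 4 genes each way, ranked by the smaller of their 2 changes; a few of these are not reported here. Ratio intervals are exact binomial (scipy 1.17.1). Alternatives were the pseudocount (0.1), filters (none, or 5 FPKM), scaling by sums of reads or median ratio, only protein-coding genes, a constant variance, voom, fold thresholds and leaving out a library labelled shUSP16.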

Additional observations from a re-analysis of the deposited data

How the results depend on the processing

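No member was called under the pseudocount, filter, scaling, biotype and trend alternatives or by voom with the implied totals; voom with sums of reads, chosen after seeing the data, called 1, MXD1. Of 78 tested values of single members under the alternatives, 77 kept their direction and their side of the threshold and 1 became a call (MXD1). The filter, protein-coding and constant-variance alternatives refit the same log2 values, so in these the direction could not change and only the p-value could. Of 18 untested values with a library labelled shUSP16 left out, 17 kept their direction and 1 changed sign: MXD4 had a log2 difference of 0.15 without shUSP16-2 and -0.42 without shUSP16-1. Members at least 1.5-fold from shControl in both numbered 0, but 1 with sums of reads (MXD1), 3 at the lowest fold threshold tried, which ratios of 1.26 and 0.714 pass (MYC, MYCL and MXD1), and 0 to 2 with 1 library labelled shUSP16 left out. MYCL could be counted only because its level in shControl lifted it past the filter. Calls over all genes numbered 13 with a mean of at least 5 FPKM, 48 for protein-coding genes, 348 by voom with the implied totals (204 higher, 144 lower) and 557 with sums of reads (139 higher, 418 lower), against 0. MYC activated targets called numbered 15 by voom with either total, and MYC repressed targets 3 for protein-coding genes, 7 by voom and 8 with sums of reads. Each of these counts of repressed targets includes NDRG1, which was tested only through its level in shControl. The causes of the differences between settings were not tested. Without shUSP16-1 or shUSP16-2, the quotient of the repressors to MYC ran from 0.206 to 0.274. Leaving out a library labelled shUSP16 leaves no residual degrees of freedom, so calls could not be recounted. No paired analysis was possible because shControl has 1 library and its label carries no number. Depth limits MYCN and MYCL, with 55 to 215 reads per library.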
